A study of Arabidopsis thaliana with 6 samples.

Results

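Regulators of the carpel, the ovule and the fruit, 8 genes in all, were followed through 3 stages of reproduction in Arabidopsis thaliana: YAB3, INO, SPT, ALC, CES, CYP78A9, NGA1 and NGA3. They were taken by name, with earlier results of these data known, and each of the 8 symbols was paired with 1 probe set of its own among 22746 non-control probe sets, which cover 13356 genes with a probe set of their own. Transcripts were measured on Affymetrix ATH1 arrays, each from total RNA pooled from 12 plants aged 6 weeks. The plants were of accession Landsberg erecta, grown without any treatment, and no transgene is given for them. As background, this accession carries a mutation in ERECTA, a receptor kinase gene that affects the shape of flowers and fruits, and all groups share it. The groups were closed flower buds harvested whole shortly before pollination, whole open flowers that had been pollinated, and siliques (the fruits of Arabidopsis) taken 2 d after pollination and freed of withering flower organs, with 2 arrays each from 2 separate runs of the experiment. The organs harvested differ between the stages by design, so fewer cells of a type and less RNA per cell cannot be told apart in any value below.

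The gynoecium forms from fused carpels. Its outer walls become the valves of the fruit, its inner margins give rise to the ovules and to the transmitting tract through which pollen tubes grow, its tip forms the style and stigma, and the borders of the valves later become the zones where the fruit splits open. The 8 genes act at different points of this plan. YAB3 and INO encode YABBY transcription factors, which set the abaxial (outer) identity of organs. SPT, ALC and CES encode basic helix-loop-helix transcription factors of the carpel margin, the dehiscence zone and the transmitting tract. NGA1 and NGA3 encode B3-domain factors that direct style development, and CYP78A9 encodes a cytochrome P450 that promotes the growth of fruits and seeds.

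All levels below are MAS5 signals, a linear fluorescence scale on which every array has the same trimmed mean, and a signal is followed by ± the SD over its 2 arrays. Changes were fitted with limma on log2(signal + 10) over all 12075 probe sets that reached a signal of 50 on at least 2 arrays, ± after a log2 change is its standard error, and p-values were adjusted over all of these probe sets. A change was called at an adjusted p under 0.05. Overlap between stages is given as a description of 2 arrays each and is not a test. The share of all probe sets without overlap was not computed. Of the 8 genes, 6 passed this filter. NGA1 reached 50 on 1 array and NGA3 on 0, so their changes come from the fit without the filter. CYP78A9 passed through the 2 flower arrays alone, YAB3 through the bud and flower arrays, and SPT through both bud arrays and 1 flower array. Counts and medians over the 6 genes therefore describe them only.

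Open flowers differed from closed buds in CES and CYP78A9, which were higher, and in YAB3, which was lower. These are 3 of the 6 tested genes, and 10.7% of all tested probe sets were called in this comparison, 4.53% higher and 6.13% lower in flowers. From flowers to siliques 2 of the 6 fell, CES and CYP78A9, where 14.7% of all probe sets were called, 7.23% higher and 7.45% lower in siliques. Between buds and siliques 3 of the 6 were called, YAB3 and CES lower and CYP78A9 higher in siliques, where 15.6% of all probe sets were called, 7.03% higher and 8.52% lower in siliques. Across all 3 stages in one F test, the same 3 genes passed, with adjusted p = 0.00275 for YAB3, 0.000344 for CES and 0.00158 for CYP78A9 (21.2% of all probe sets passed). The genes that passed therefore followed 3 different courses. INO, SPT and ALC did not pass in any comparison of the main fit, which does not pair the arrays by run. With the run as a term, limma also called YAB3 (adjusted p = 0.0433) and ALC (adjusted p = 0.0441) from flowers to siliques. In that fit 18.1% of all tested probe sets were called in this comparison. The median change over the 6 tested genes was −0.17 from buds to flowers, −0.41 from flowers to siliques and −0.35 from buds to siliques, beside −0.01, 0.02 and −0.00034 over all tested probe sets.

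**Figure D1:**
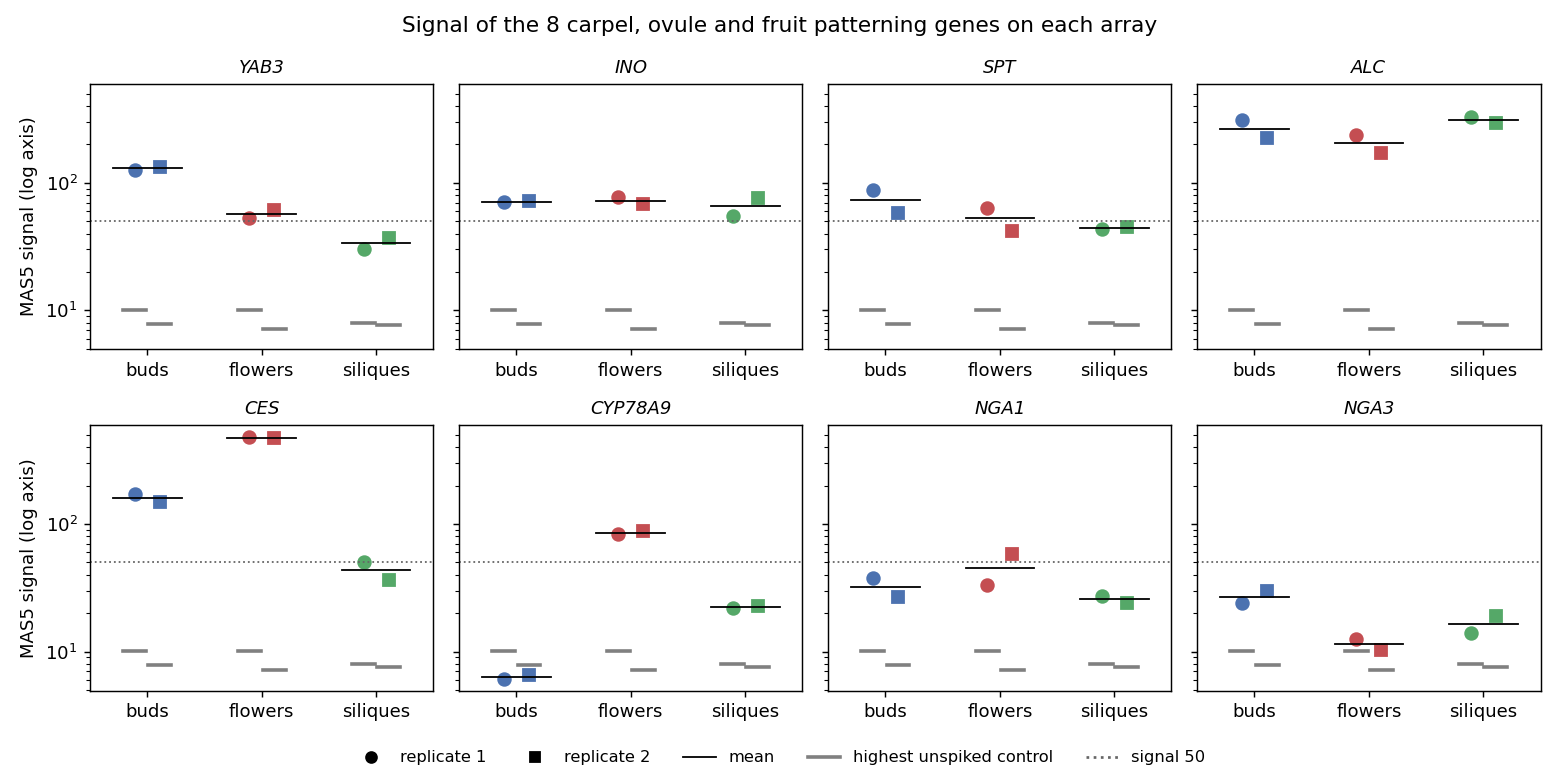
MAS5 signal (vertical axis, log scale) of each of the 8 genes in buds, flowers and siliques. Circles are replicate 1, squares replicate 2, the black line is the mean of the 2 arrays, grey bars mark the brightest unspiked control probe set of each array, and the dotted line is the signal of 50 used as filter. CES and CYP78A9 stand highest in flowers, YAB3 steps down from buds to siliques, and CYP78A9 lies below the grey bars in buds.

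Of the YABBY genes, YAB3 was called in 2 comparisons and INO in none, and the difference between them was not tested. YAB3 (AT4G00180) acts with the related gene FIL in the abaxial side of lateral organs and in the valves and valve margins of the fruit. Its signal was 126 and 134 on the bud arrays, 53.1 and 61.0 on the flower arrays and 30.2 and 37.1 on the silique arrays. Buds were thus highest, siliques lowest, and no stages overlapped. The mean in buds was 2.28 times that in flowers and 3.86 times that in siliques. YAB3 fell from buds to flowers by 1.06 ± 0.17 on the log2 scale (limma, adjusted p = 0.0104) and from buds to siliques by 1.68 ± 0.17 (adjusted p = 0.00132). The step from flowers to siliques had a log2 change of −0.62 ± 0.17 (95% confidence interval −1.03 to −0.22) and missed the threshold at an adjusted p of 0.0551, but passed it at 0.0433 when the replicate number, which marks the run of the experiment, was a term in the model. The size of each step was close in the 2 runs, at −1.11 and −1.02 from buds to flowers, −0.65 and −0.59 from flowers to siliques, and −1.76 and −1.61 from buds to siliques. The bud-to-flower call was lost without buds 2 (adjusted p = 0.0633), flowers 1 (0.0717) or flowers 2 (0.0512), whereas the bud-to-silique call was kept in all 15 alternative settings (adjusted p from 0.00104 to 0.0119).

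INO (AT1G23420) is needed for the outer integument, the outer coat of the ovule, and is known from the side of the ovule primordium where that coat arises. Its signal was 70.2 and 71.8 in buds, 77.6 and 67.6 in flowers and 55.1 and 76.1 in siliques. The 3 stages overlapped, and the widest gap between 2 arrays of a stage was in siliques. Its log2 change was 0.026 from buds to flowers (95% confidence interval −0.42 to 0.48, adjusted p = 0.958), −0.14 from flowers to siliques (−0.59 to 0.31, adjusted p = 0.663) and −0.11 from buds to siliques (−0.56 to 0.34, adjusted p = 0.716). The intervals reach down to −0.59 and up to 0.48, so a level course was not shown. The sign of these small changes differed between the runs in every comparison, for example −0.43 in replicate 1 and 0.15 in replicate 2 from flowers to siliques.

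Of the 3 basic helix-loop-helix genes, CES was called in every comparison of the main fit and SPT and ALC in none. Differences among the 3 were not tested. CES (AT1G25330), also named HAF, acts with the related BEE genes in the transmitting tract and is known as a regulator of brassinosteroid responses. Its signal was 170 and 149 on the bud arrays, 482 and 472 on the flower arrays and 50.7 and 36.2 on the silique arrays. Both flower arrays lay far above both bud arrays, and both silique arrays lay far below them, with no overlap between any stages. Mean signals were 160 ± 15 in buds, 477 ± 7 in flowers and 43.4 ± 10.2 in siliques, so that the level in flowers was 2.98 times that in buds and 11.0 times that in siliques. CES rose from buds to flowers by a log2 change of 1.52 ± 0.18 (adjusted p = 0.00313). From flowers to siliques it fell by 3.20 ± 0.18 on the log2 scale (adjusted p = 0.00136), and this decrease ranked 42 among the 12075 tested probe sets. Siliques also lay below buds, with a log2 change of −1.68 ± 0.18 (adjusted p = 0.00166). Each run gave these steps in the same direction, at 1.45 and 1.60, −3.02 and −3.38, and −1.57 and −1.78. All 3 calls of CES were kept in each of the 15 alternative settings, with adjusted p from 0.00166 to 0.0247 for the rise, 0.000593 to 0.0188 for the decrease into siliques and 0.00159 to 0.0126 between buds and siliques.

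SPT (AT4G36930), the SPATULA gene, promotes the growth of the carpel margins and of the tissues derived from them. Its signal was 88.2 and 57.6 in buds, 63.2 and 42.0 in flowers and 43.3 and 44.7 in siliques. Replicate 1 stood above replicate 2 in buds and in flowers but not in siliques, buds overlapped with flowers, and buds lay above siliques without overlap. None of its changes passed. The log2 change of siliques against buds was −0.59 ± 0.25 (95% confidence interval −1.20 to 0.02, adjusted p = 0.163), with −0.88 in replicate 1 and −0.31 in replicate 2. The values from buds to flowers and from flowers to siliques were −0.40 ± 0.25 (adjusted p = 0.389) and −0.19 ± 0.25 (adjusted p = 0.656).

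ALC (AT5G67110), the ALCATRAZ gene, is the closest relative of SPT among the 8 and is needed for the separation layer at which the ripe fruit opens. Its signal was 309 and 223 in buds, 238 and 171 in flowers and 327 and 292 in siliques. Replicate 1 stood above replicate 2 in every stage. Siliques lay above flowers without overlap, while buds overlapped with both. The log2 change of siliques against flowers was 0.59 ± 0.22 (95% confidence interval 0.05 to 1.13) with 0.44 and 0.74 in the 2 runs. It missed the threshold at an adjusted p of 0.129, but passed at 0.0441 with the replicate number as a term. With that term 4 of the 6 tested genes were called in this comparison, YAB3 and ALC being added, while the share of all tested probe sets called rose to 18.1%. For flowers against buds the change of ALC was −0.36 ± 0.22 (adjusted p = 0.375) and for siliques against buds it was 0.23 ± 0.22 (adjusted p = 0.530).

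**Figure D2:**
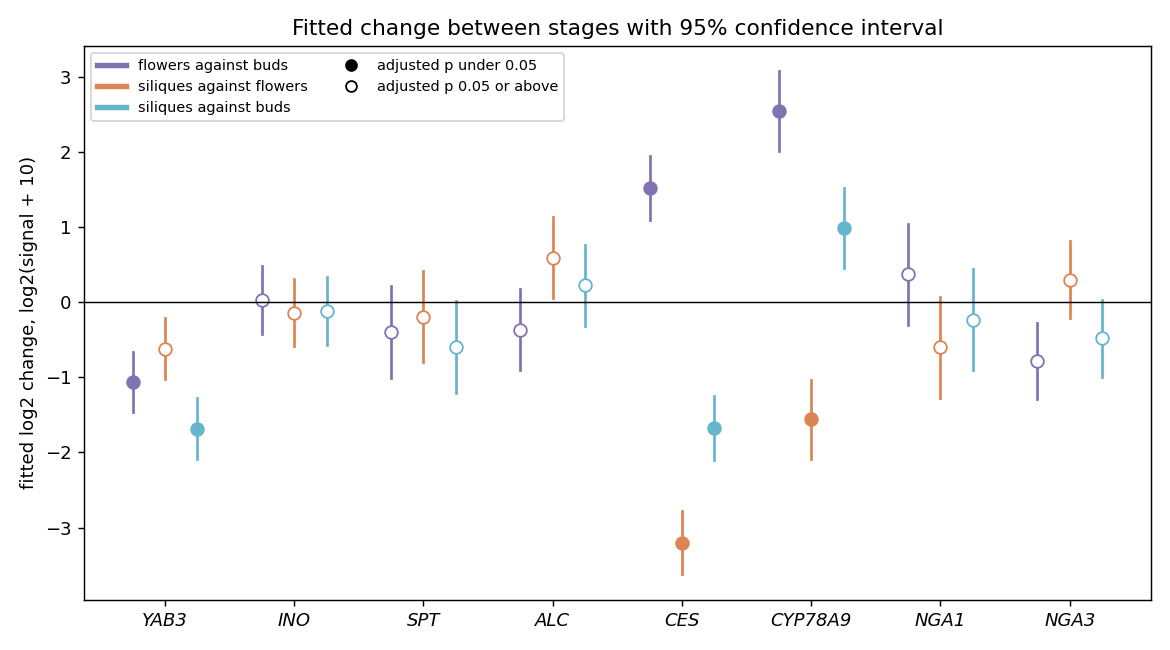
Fitted log2 change (vertical axis) of the 8 genes in the 3 comparisons, with 95% confidence intervals as lines, filled circles for an adjusted p under 0.05 and open circles otherwise. NGA1 and NGA3 come from the fit without the filter on low values. CES and CYP78A9 have filled circles on both sides of zero, and the intervals of INO, SPT and NGA1 span zero in all 3 comparisons.

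CYP78A9 (AT3G61880) belongs to a P450 family of plants thought to act through a mobile growth signal. Its signal was 6.15 and 6.61 on the bud arrays, 83.0 and 88.3 on the flower arrays and 22.2 and 22.7 on the silique arrays. Both bud values were under the brightest unspiked control of their array (10.1 and 7.80), so the gene was not above background in buds and only a bound can be given there. Against that control level, and without the offset, it was at least 9.64-fold higher in flowers and at least 2.53-fold higher in siliques than in buds. The limma fit, a separate measure that adds the offset to the bud signals themselves, gave smaller sizes. Its log2 change against buds was 2.55 ± 0.22 in flowers (adjusted p = 0.00107) and 0.99 ± 0.22 in siliques (adjusted p = 0.0300). From flowers to siliques CYP78A9 fell by 1.56 ± 0.22 on the log2 scale (adjusted p = 0.0101), and the mean in flowers was 3.82 times that in siliques. The 2 runs gave −1.53 and −1.59 from flowers to siliques; fitted sizes against buds depend on the offset, so no values by run are given for them. The order of levels was flowers, siliques, buds, with no overlap.

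The firmness of the 3 results differed. The rise into flowers was called in all 14 settings that could test the gene, although its fitted size ran from 1.62 with an offset of 32 to 3.39 with an offset of 2. The decrease from flowers to siliques was no longer called when flowers 1 (adjusted p = 0.0886), flowers 2 (0.0835) or siliques 1 (0.0633) was left out. The difference between siliques and buds was called in 8 of 14 settings. It was lost with only the arrays compared (adjusted p = 0.152) and without buds 1 (0.0744), flowers 1 (0.0934), flowers 2 (0.0901), siliques 1 (0.0996) or siliques 2 (0.114), and its size was 0.50 with the larger and 1.54 with the smaller offset.

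CES and CYP78A9 thus shared a maximum in open flowers and differed in the order of buds and siliques. Calls for both a rise into flowers and a decrease into siliques were found in 272 of the 12075 tested probe sets (2.25%). Of these, 36 were also lower in siliques than in buds, as CES was, and 21 were higher, as CYP78A9 was. The course of YAB3, lower in flowers and in siliques than in buds with no call between flowers and siliques, was shared by 459 tested probe sets (3.80%).

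The NGATHA genes act redundantly in the style, and both had low signals. NGA1 (AT2G46870) was at 37.9 and 26.8 in buds, 33.4 and 57.8 in flowers and 27.3 and 24.3 in siliques. The 2 flower arrays were far apart, and flowers overlapped with buds and lay above siliques. In the fit without the filter its log2 changes were 0.37 ± 0.28 from buds to flowers (adjusted p = 0.536), −0.60 ± 0.28 from flowers to siliques (adjusted p = 0.266) and −0.23 ± 0.28 from buds to siliques (adjusted p = 0.676). The first of these was −0.14 in replicate 1 and 0.88 in replicate 2.

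NGA3 (AT1G01030) was at 23.9 and 29.8 in buds, 12.5 and 10.4 in flowers and 14.0 and 18.9 in siliques. Buds were above both other stages, siliques were above flowers, and no stages overlapped, but the flower arrays lay little above the highest unspiked control on them (10.1 and 7.20). Its log2 changes were −0.78 ± 0.21 from buds to flowers (95% confidence interval −1.29 to −0.27, adjusted p = 0.0969), 0.30 ± 0.21 from flowers to siliques (adjusted p = 0.475) and −0.48 ± 0.21 from buds to siliques (adjusted p = 0.226), none of which passed. The other NGATHA genes also had probe sets of their own. NGA2 (AT3G61970), the only one of the 4 to pass the filter, was at 47.0 and 36.4 in buds, 55.1 and 52.7 in flowers and 74.5 and 56.0 in siliques, and its log2 change of 0.54 from buds to siliques did not pass (adjusted p = 0.126). NGA4 (AT4G01500) was at 15.8 to 26.4 over all arrays.

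A list of 78 genes of carpel, ovule and fruit patterning, the 8 included, was set beside these values. Of the other 70 genes, 11 had a probe set of their own and 5 passed the filter: PHV, NGA2, SEU, TSO1 and HLL. PHV encodes a homeodomain factor of adaxial identity, SEU a co-repressor partner of floral regulators, TSO1 a regulator of cell division in floral tissue and HLL a mitochondrial ribosomal protein needed for ovule growth. By limma, 0 of the 5 passed in each comparison, and at an unadjusted p under 0.05 there were 0 from buds to flowers, 0 from flowers to siliques and 2 from buds to siliques, where 25%, 31.6% and 32.5% of all tested probe sets stood under that value. In the same order their changes ran from −0.20 to 0.31, −0.02 to 0.25 and −0.22 to 0.54, with medians of 0.05, 0.14 and 0.19. SEU was at 173 and 175 in buds, 172 and 152 in flowers and 161 and 158 in siliques. HLL was at 127 and 135 in buds, 174 and 139 in flowers and 217 and 160 in siliques (log2 change from buds to siliques 0.48 ± 0.19, adjusted p = 0.142). Below the filter, and picked out after its values were seen, ADPG1, a polygalacturonase of the cell separation that opens fruits and anthers, was at 84.7 and 44.6 in buds and at 7.78 to 13.1 on the flower and silique arrays.

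The genes whose log2 signals ran most like those of each tested gene over the 6 arrays were found among the genes with a symbol whose stage means spanned at least 1 on the log2 scale. This left 229 or 230 candidates for each tested gene. These correlations describe 6 arrays in 3 stages, which share their stage and run, and carry no test. For CES they were ARD4, an acireductone dioxygenase (r = 0.990), BETA-VPE, a vacuolar processing enzyme (0.990), and ARPN, the plantacyanin gene (0.983). BETA-VPE was at 60.8 and 40.6 in buds, 118 and 116 in flowers and 13.6 and 14.2 in siliques. ARPN was at 145 and 126, 490 and 553, and 69.0 and 49.9, close to the values of CES in shape. For CYP78A9 they were the expansin gene EXPA4 (0.986), the receptor-like cytoplasmic kinase gene BIK1 (0.979) and the sugar transporter gene SWEET4 (0.977). For YAB3 they were HHP2, a heptahelical membrane protein (0.987), AGL104, a MADS-box gene of pollen (0.983), and BGLU41, a beta-glucosidase (0.983).

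For SPT the nearest genes were SIS (0.984), AKINBETA1, a subunit of the SnRK1 kinase (0.972), and BAT1, a brassinosteroid acyltransferase gene (0.937). SIS was at 275 and 78.6 in buds and at 105 and 38.0 in flowers, so it shared the gap between the replicates as well as the order of the stages. For ALC they were EXO (0.955), BGLU45 (0.943) and PTI1-4 (0.926). For INO the likeness was lower beyond the first gene, with RR16, a cytokinin response regulator, at 0.894 and PIPK11 and AAE16 at 0.689 and 0.681. INO, SPT and ALC each changed by less than 1 on the log2 scale between stages, so genes as flat as these were not candidates. The lower likeness can therefore not be read as a trait of INO. Among the 8 genes themselves, the strongest correlation was that of CYP78A9 with NGA3, at −0.911, followed by 0.757 for CES with NGA1. CYP78A9 lay below the control level in buds and NGA3 little above it in flowers, and neither NGA1 nor NGA3 passed the filter.

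Organ markers moved with the stages, as did YAB3, CES and CYP78A9. Summed signals of 4 anther genes (AT5G07230, ATA27, SHT and SWEET8) were 2764 and 3920 in buds and 79.9 to 127 on the other arrays, where 2 or 3 of the 4 lay at or below the control level, so they were highest in the stage where YAB3 was highest. Those of 4 pollen genes (AGL104, AGL66, ANX2 and MGH3) were 485 and 264 in buds, 206 and 242 in flowers and 30.3 and 76.4 in siliques, but ANX2 alone ran the other way from buds (61.8 and 25.4) to flowers (111 and 151). Those of 3 of 4 nectary and petal genes (SWEET9, AT3G25810 and BPEp) were 165 and 146 in buds, 1781 and 2154 in flowers and 31.6 and 28.6 in siliques. These sums have the order of CES but join unlike courses. BPEp by itself was at 88.4 and 127 in buds, 99.6 and 78.5 in flowers and 12.1 and 5.13 in siliques. SWEET9 was at 47.0 and 9.26 in buds and at 12.7 and 16.7 in siliques. Neither SWEET9 nor AT3G25810 was called between buds and siliques (limma, adjusted p = 0.563 and 0.197). Summed signals of 2 of 3 seed coat genes (BAN and DFR) were 15.4 and 16.3, 222 and 317, and 1413 and 1551. The part of organ content in the changes of YAB3, CES and CYP78A9 was not tested. GAPDH, whose 3' signal over 5' signal reflects RNA integrity, had ratios of 0.967 and 1.02 in flowers against 0.835 to 0.919 elsewhere. The same ratio did not set flowers apart for actin (1.34 and 1.41, with 1.19 to 1.38 elsewhere) or ubiquitin (1.304 and 1.303, with 1.17 to 1.51 elsewhere), and the part of RNA integrity in the flower maxima was not tested. Median signals were 41.5 to 48.3, and the spiked-in controls of siliques 2 stood at 1.77 times the mean of the other arrays.

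**Figure D3:**
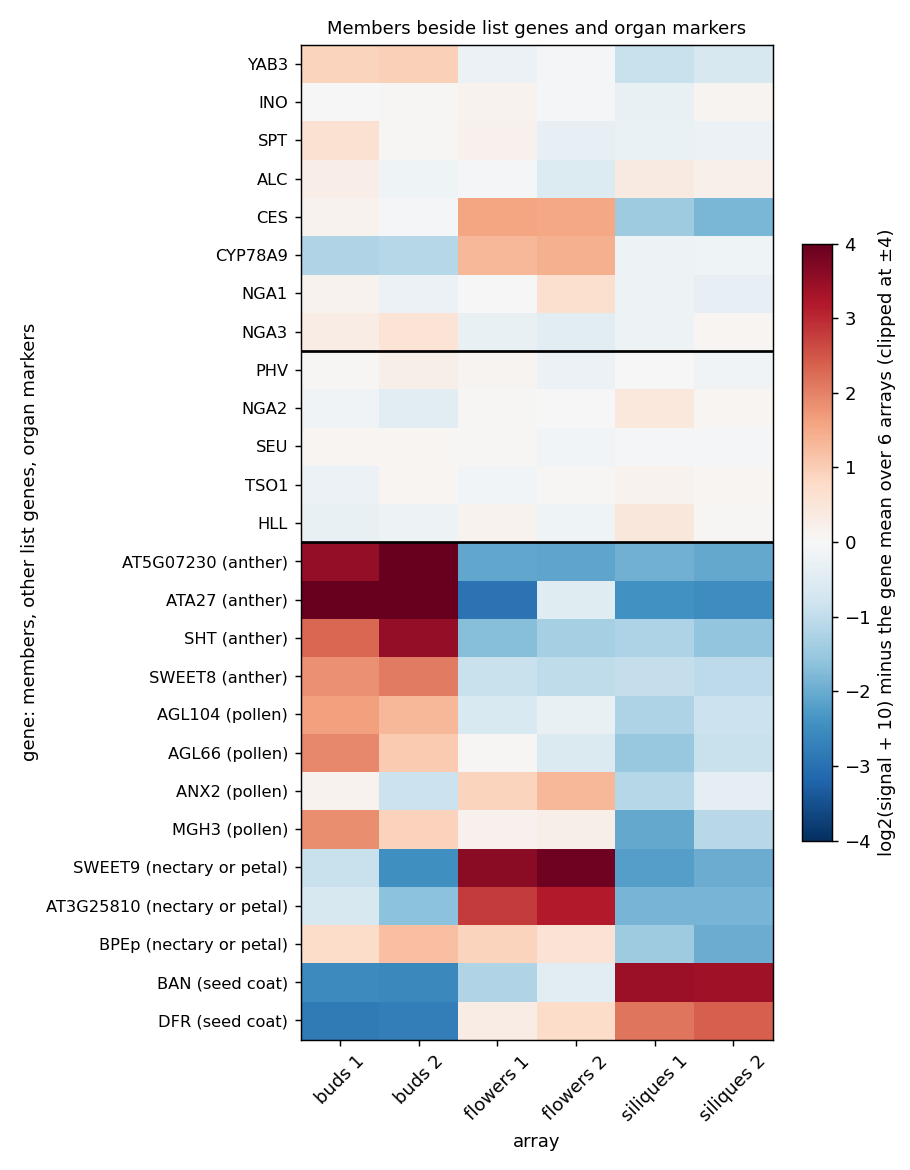
Log2(signal + 10) minus the mean of each gene over the 6 arrays (colour, clipped at 4 in either direction) for the 8 genes, the 5 other tested list genes and the organ markers, with 1 column per array. CES and CYP78A9 are red in both flower columns, as are SWEET9, AT3G25810 and the pollen gene ANX2 among others. BPEp is red in the bud and flower columns alike. The anther genes are red in the bud columns, and the 5 other list genes stay pale.

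**Figure D4:**
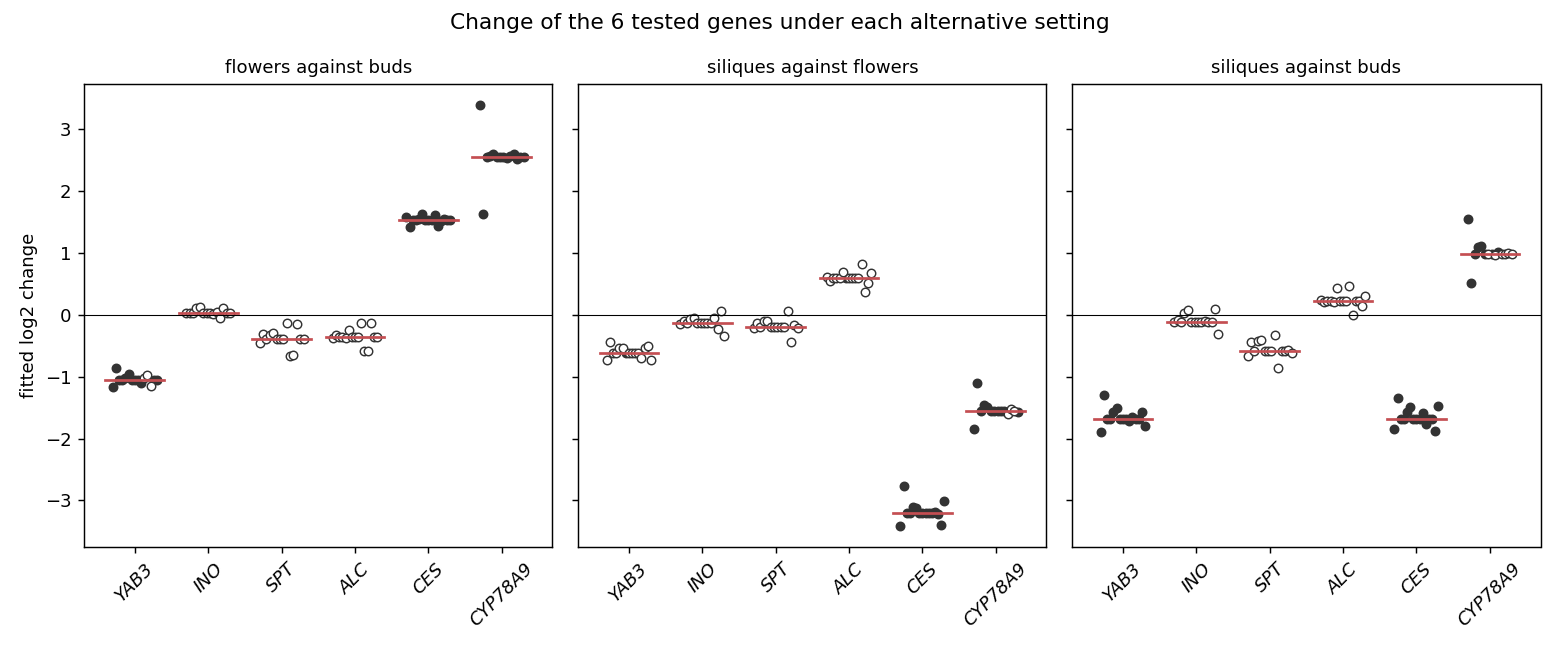
Fitted log2 change (vertical axis) of the 6 tested genes in the 3 comparisons under each alternative setting. Each circle is 1 setting, filled where the adjusted p was under 0.05, and the red line is the reported value. The circles of CES are filled throughout, and those of CYP78A9 spread most with the offset.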

How the data were processed

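The submitters' processing notes name MAS5, with neither its version nor its settings, and detection calls were not used here. The values as deposited are signal intensity on a linear scale, 1 per probe set, with a 2% trimmed mean of 100.01 on every array. The number of arrays limits the precision. Probe sets were paired with genes through GEO's platform annotation and the RefSeq gene table of TAIR10.1: 13513 of them with 1 gene, 503 with several and 8730 with none listed. The 64 control probe sets were left out of all tests.

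Signals were offset by 10 and log2 transformed. One limma 3.58.1 model (R 4.3.3; lmFit, contrasts.fit, eBayes with trend) held all 6 arrays in 3 groups, leaving 3 residual degrees of freedom, with a median of 3.61 prior ones. P-values are two-sided, Benjamini-Hochberg adjusted. Where both arrays of a stage lay at or below the highest of 27 bacterial control probe sets with no sign of a spiked-in target, the fold is a bound against that level (means of log2 signals without offset). Gene lists were matched by locus.

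The replicate numbers pair the samples, since the labels say the experiment was run a second time. The main model left this pairing out, and a model with a replicate block was an alternative. Replicate 1 minus replicate 2 differences correlated at 0.34 (buds and flowers), −0.01 (buds and siliques) and 0.17 (flowers and siliques) over tested probe sets. The 8 genes and the lists were chosen with earlier results of these data known. All 8 genes were to be named, with called list genes and the 3 genes most like each tested member. The code was tested on simulated data. The alternatives for the F test and the use of the fit without the filter for NGA1 and NGA3 were added after the data were seen.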

Additional observations from a re-analysis of the deposited data

How the results depend on the processing

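Of the 342 values of single genes under the alternatives, 321 kept their side of the threshold and, where they have a direction, their direction. Values of the F test, which are among the 342, have no direction. With a replicate block, siliques against flowers had 4 of the 6 tested genes called in place of 2 (YAB3 and ALC were added) and 2190 of all probe sets in place of 1773, and the block changed no other call of these genes. With the filter at a signal of 100, which leaves 3 of the 8 genes, siliques against flowers had 1 of them called, beside 19.6% of all probe sets tested. Leaving out 1 array gave 2 to 3 called genes for flowers against buds, 1 to 2 for siliques against flowers and 2 to 3 for siliques against buds, and 3 in the F test. Signs that turned were all of changes that were not called. From buds to siliques INO was at 0.033 with quantile normalization and 0.073 with median scaling. With 1 array left out, INO ran from −0.062 to 0.11 (buds to flowers), −0.34 to 0.063 (flowers to siliques) and −0.31 to 0.088 (buds to siliques), SPT from −0.44 to 0.053 (flowers to siliques) and ALC from −0.0024 to 0.45 (buds to siliques). The cause was not tested. Over all probe sets, 1287, 1773 and 1878 were called in the 3 comparisons and 2557 in the F test. Without the filter, siliques against flowers had 1162. With median scaling, siliques against buds had 2837, of which 1987 were higher, in place of 849 of 1878. That scaling also moved the median change of all tested probe sets in this comparison from −0.00034 to 0.20. The part of this shift in the added calls was not tested. Siliques against flowers then had 1264 higher and 785 lower in place of 873 and 900. Flowers against buds had 704 and 618 in place of 547 and 740. Leaving out 1 array gave 580 to 1115, 251 to 2036, 871 to 1808 and 1219 to 2399. In these fits a stage with 1 array is assumed to vary like the others. Signals near the control level, as in NGA3 in flowers and CYP78A9 in buds, limit what a fold can show.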
